A study of Homo sapiens with 4 samples.

Results

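The cytosolic chaperonin CCT, also called TRiC, was examined in PC3 cells after depletion of COUP-TFII. The chaperonin is a double ring in which each ring is built from the products of 8 related genes, TCP1 and CCT2, CCT3, CCT4, CCT5, CCT6A, CCT7 and CCT8. The members were the probe sets that the platform table assigns to exactly 1 of these genes. This rule gave 12 probe sets for 7 genes, out of 54675 probe sets on the array and 19775 genes represented. TCP1 had no such probe set, because its 3 probe sets are paired in the table with a second gene, the small nucleolar RNA gene SNORA29. Its level is therefore not given here.

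PC3 is an established line of human prostate cancer cells, first grown from a metastasis in bone. Cells grown in medium with fetal bovine serum received 40 nM of control siRNA or of COUP-TFII siRNA, and total RNA was taken after 48 h, with 2 arrays for each siRNA. COUP-TFII is a DNA-binding nuclear receptor with no established natural ligand, and the comparison asks which transcripts change when it is depleted. Both groups are 1 cell line, the labels give no siRNA sequence and no transfection identity for the replicates, and the targeted transcript was not examined here, so the p-values cover the spread of these arrays alone and that spread may be technical.

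Newly made proteins enter the central cavity of CCT, where ATP binding and hydrolysis close a built-in lid and the substrate folds. Actin and tubulin depend on it, as do many proteins with WD40 repeats, among them the anaphase activator CDC20 and G protein beta subunits. Every subunit has the same overall plan, but those on one side of the ring (CCT2, CCT4, CCT5 and CCT7) bind ATP more tightly than those on the other (TCP1, CCT3, CCT6A and CCT8). Prefoldin hands unfolded actin and tubulin to the chaperonin, and phosducin-like proteins act as its cofactors. Heat shock factor HSF1 is a known activator of chaperonin genes.

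The promoters of the subunits were searched for a few short motifs, because genes of one complex can share start-site features. RefSeq windows on GRCh38.p14, from 250 bases before to 50 bases after a gene start (300 bases in all), were given for 7 of the 8 genes, with 9 windows. CCT6A had no entry. A CCAAT box (CCAAT, either strand) lay in 4 of the 9 windows, those of TCP1, CCT2, CCT3 and CCT8, against 34.6% of all 35116 windows in the table. The palindrome GAANNTTC, 2 inverted GAA units labelled heat shock element here, lay in 2 of the 9, against 6.77%. No further units beside it were searched for. An ETS core (CCGGAA, either strand) lay in 2, those of CCT2 and CCT5, against 17.2%. The nuclear receptor half-site AGGTCA, a sequence that COUP-TF proteins can bind as repeats, lay in 0 of 9 on either strand, against 13.8%, and the E-box CACGTG in 0 of 9, against 7.26%. A match describes letters only. The 30 bases around each CCAAT box and each heat shock element are written here on the strand of the gene, with the element in capitals (ATTGG is CCAAT read on the other strand) and its first base counted from the start at 0.
CCT2, CCAAT box at -91, chr12:69585356-69585385, plus strand: gcccgtggggctCCAATcaaaatgggacgc
CCT3, CCAAT box at -75, chr1:156338350-156338379, minus strand: ctaaggctgtcaATTGGtctgtttttgtgc
CCT3, CCAAT box at -34, chr1:156338309-156338338, minus strand: atgggtgcggtgATTGGcgactaccttgag
CCT8, CCAAT box at -63, chr21:29073694-29073723, minus strand: aagggtgggctaATTGGagagccaggaaga
TCP1, CCAAT box at -154, chr6:159789739-159789768, minus strand: atcggctatctaATTGGacaaaaatgccga
TCP1, heat shock element at -231, chr6:159789815-159789844, minus strand: tcgtttgaggcGAAGGTTCaacctcttccc
CCT2, heat shock element at -89 of a second start, chr12:69585789-69585818, plus strand: cccggagcgaaGAAATTTCtagtgtgggac

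The arrays were similar in overall level, with median intensities from 31.7 to 32.9. Epithelial markers were bright, the 6 genes having control means from 2641 to 9516, and 5 of the 6 were called, KRT7, KRT8 and KRT18 higher and EPCAM and CDH1 lower, with log2 fold changes from -0.30 to 0.36. Of all genes 23.1% were called, and of the 858 genes at least as bright as the dimmest subunit 46.2%. Of the 4 measured luminal prostate markers, KLK3, KLK2 and FOLH1 had control means of 17.1, 16.9 and 4.08 and were not called, while TMPRSS2 was called higher, from a mean of 144.3 to 391.6, and the summed intensity of the 4 went from 177.2 to 187.4 in controls to 438.8 to 442.9. The 6 measured leukocyte markers had control means of 1.07 to 35.4, and none was called. Of 8 fibroblast and endothelial markers, 1 was called higher (COL1A1), the summed intensity of the list was 822.5 to 888.1 in control arrays and 1234 to 1316 in COUP-TFII siRNA arrays, and VWF lay at 1.38 and 1.11. The ratio of 3′ to 5′ control probe sets for ACTB, which reads RNA quality, was 1.67 ± 0.22 (SD, n = 2) with control siRNA and 1.44 ± 0.03 (SD, n = 2) with COUP-TFII siRNA, and that for GAPDH 0.971 ± 0.021 and 0.990 ± 0.005. Whether these differences have a part in the results that follow was not tested.

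The 7 measured subunits were all slightly lower with COUP-TFII siRNA, relative to the median of all genes, and 5 passed the test. CCT5 fell most, by 22.4%, followed by CCT6A (14.0%), CCT7 (13.2%), CCT4 (10.4%) and CCT2 (9.98%). CCT8 was 9.06% lower and CCT3 5.30% lower, and neither passed. Directions here and for the gene groups described later hold on the deposited scale. When each array was centred on the median change of 15 housekeeping genes, a setting added after seeing the data, all 7 stayed lower, with 3 called (CCT5, CCT6A and CCT7) and a median log2 fold change of -0.10. Centring on the median level of these genes, the housekeeping centring that had been planned, instead added 0.36 to every gene. It turned 6 of the 7, all but CCT5. That level belongs to HPRT1 in both control arrays and to SDHA in both COUP-TFII siRNA arrays, so this constant compares different probe sets and is no test of the subunits. A gene was called when its adjusted p was under 0.05 (limma, Benjamini-Hochberg over all genes) on log2(intensity + 16), where each gene was represented by its brightest single-gene probe set. In the same test 23.1% of the 19775 genes were called, 10.3% lower and 12.8% higher. Among the 858 genes at least as bright as the dimmest subunit, 46.2% were called, 29.7% lower, and 59.8% had a log2 fold change below 0. At an unadjusted p under 0.05 in the limma fit, 6 of the 7 subunits passed, against 32.7% of all genes. That share was not taken over the 858 bright genes alone. RNA was taken from whole cultures, so fewer cells making a transcript and less of it per cell cannot be told apart.

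**Figure D1:**
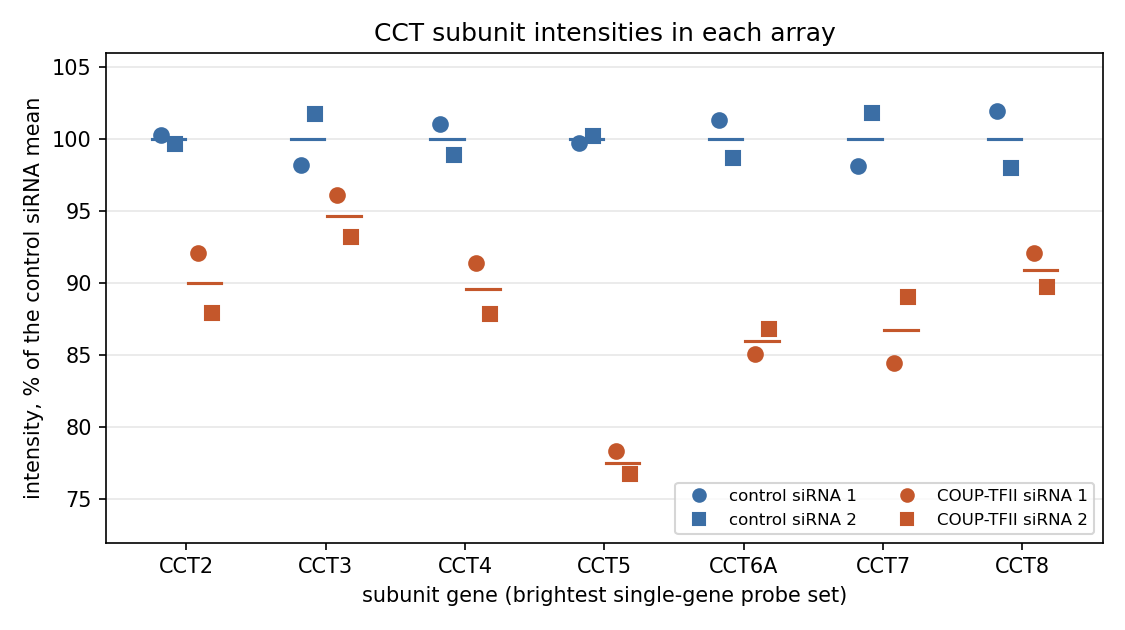
Intensity of the brightest single-gene probe set of each subunit gene in each array, as a percentage of the mean of the 2 control siRNA arrays (points: arrays; lines: group means; the axis does not start at 0). In all 7 genes both COUP-TFII siRNA arrays lie below both control arrays on the deposited scale, with CCT5 lowest at 22.4% below the control mean and CCT3 nearest at 5.30% below.

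On the side of the ring that binds ATP more tightly, CCT5, the epsilon subunit, had intensities of 4932 and 4957 in the control arrays and 3876 and 3794 in the COUP-TFII siRNA arrays. Both treated arrays lay far below both controls, by much more than replicates differed from each other. The log2 fold change was -0.37 ± 0.04 (SE; limma adjusted p = 0.000399). CCT7, the eta subunit, measured 2687 and 2788 in controls and 2313 and 2439 after COUP-TFII siRNA, without overlap, a log2 change of -0.20 ± 0.05 (SE; limma adjusted p = 0.0219). For CCT4, the delta subunit, the control arrays gave 4024 and 3941 and the treated arrays 3640 and 3499. The groups were apart by more than their own spread, and the log2 fold change was -0.16 ± 0.05 (SE; limma adjusted p = 0.0412). CCT2, the beta subunit, gave 4948 and 4919 against 4544 and 4339, with the 2 treated arrays farther from each other than the 2 controls, and a log2 change of -0.15 ± 0.05 (SE; limma adjusted p = 0.0433).

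On the side that binds ATP less tightly, CCT6A, the zeta subunit, had intensities of 3342 and 3254 in controls and 2807 and 2863 after COUP-TFII siRNA. The groups did not overlap, and the log2 fold change was -0.22 ± 0.05 (SE; limma adjusted p = 0.0102). CCT8, the theta subunit, gave 6244 and 6002 in controls and 5642 and 5495 in treated arrays. Its groups also stood apart, but the log2 change of -0.14 ± 0.04 (SE) did not pass (limma adjusted p = 0.0586). CCT3, the gamma subunit, gave 4764 and 4937 against 4664 and 4523. Here the lower control array was close to the higher treated one, and the log2 fold change of -0.08 had a 95% interval of -0.18 to 0.03 (limma adjusted p = 0.289). The intervals of the 7 genes reached from -0.47, the lower bound of CCT5, to that upper bound of CCT3. Differences between subunits were not tested, and levels were not compared between probe sets, which differ in binding.

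Groups without overlap and lower with COUP-TFII siRNA were thus seen in 7 of 7 subunits, against 26.7% of all genes and 48.1% of the genes at least as bright. The median log2 fold change was -0.16 for the subunits, 0.01 for all genes and -0.04 for the 858 bright genes. The standard errors of the subunits had a median of 0.05, against 0.17 over all genes. The fit takes the spread partly from genes of like intensity, so this need not be a trait of the subunits. With 1 prior variance for all genes their standard errors were 0.085 to 0.090. The difference between the subunit median and the median of all genes was -0.17, and centring, which moves both alike, cannot change it. The calls changed with the arrays and with the estimate of the spread. Without any 1 of the 4 arrays only CCT5 was called (limma adjusted p from 0.0133 to 0.036), and with 1 prior variance for all genes 0 of the 7 were (limma; 1 at an unadjusted p under 0.05). Quantile normalization left 3 called and a median of -0.10.

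All 12 probe sets had a log2 fold change below 0 on the deposited scale, from -0.59 to -0.05. In a limma fit over 54613 probe sets, 4 of the 12 passed, all lower, against 12.2% of all probe sets called and 5.67% called lower. They were 208696_at of CCT5, 200812_at of CCT7 and both probe sets of CCT6A. Groups without overlap and lower were seen in 11 of the 12, against 24.1% of all probe sets. Of the 12, 9 had control means above 1000, and no share was taken over probe sets of like brightness. For genes, the 858 bright ones had higher shares than all genes. Called lower were 29.7% against 10.3%, and lower without overlap 48.1% against 26.7%. The second probe set of CCT2, 201946_s_at, gave 1340 and 1267 in controls and 1176 and 1170 in treated arrays, a log2 fold change of -0.15, as for the first. The second of CCT4, 227171_at, was dim, at 74.0 and 67.0 against 48.6 and 45.9, with a log2 fold change of -0.45 and a wide interval from -0.86 to -0.04. The second of CCT5, 229068_at, measured 87.3 and 81.8 against 64.8 and 80.3, which nearly met. For CCT8 the second probe set, 210436_at, lay between 4.28 and 10.9 in all arrays, below the added constant of 16, and its groups overlapped.

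**Figure D2:**
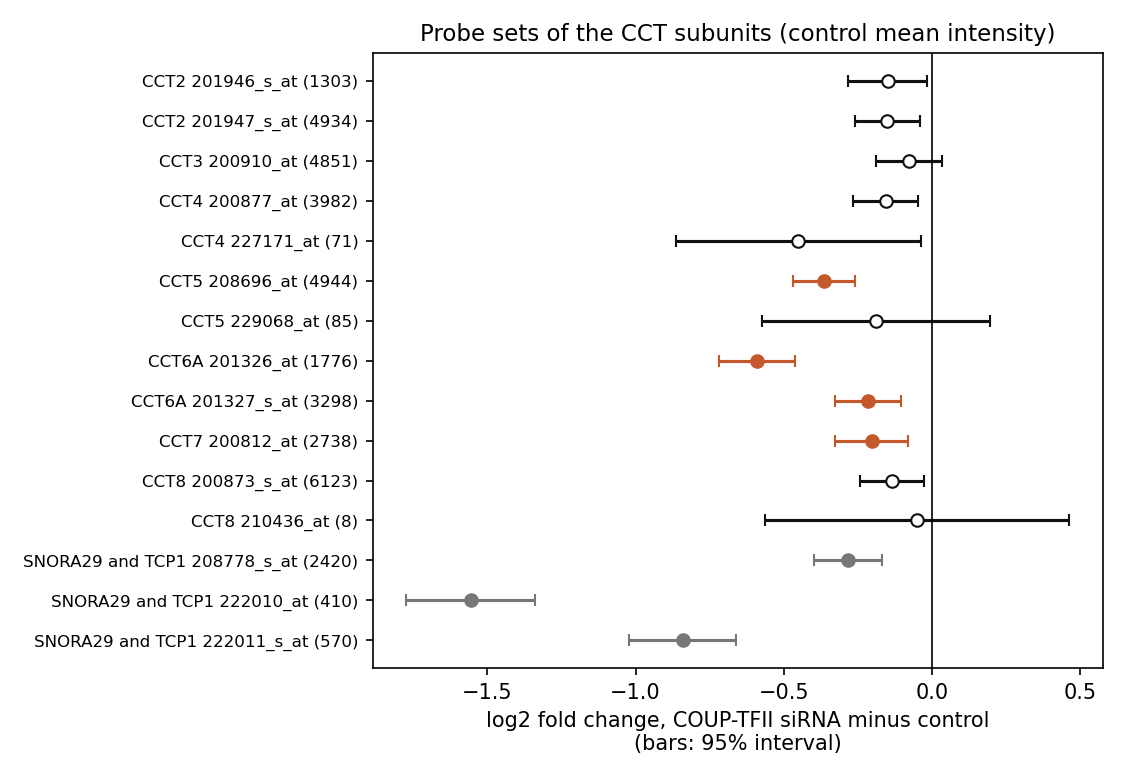
Log2 fold change of each probe set, COUP-TFII siRNA minus control siRNA, on the deposited scale (points; filled where the adjusted p was under 0.05; bars: 95% intervals from the fit over all probe sets), with the control mean intensity in brackets. Grey marks the 3 probe sets paired with both SNORA29 and TCP1. The 2 probe sets of CCT6A stand at -0.59 and -0.22 with intervals that do not meet.

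The probe sets of CCT6A differed in the size of the change. Probe set 201326_at gave 1796 and 1756 in controls and 1201 and 1147 after COUP-TFII siRNA, 33.9% lower, while 201327_s_at, which represents the gene above, was 14.0% lower. Their log2 fold changes of -0.59 and -0.22 differed by -0.37 ± 0.06 (SE; limma adjusted p = 0.00138 over 9835 genes with 2 or more probe sets, a test added after these values were seen). Such differences passed for 7.44% of these genes. The difference is taken within each array, so it does not move with centring. It passed in 10 of 11 alternatives, with adjusted p from 5.54e-05 to 0.284, the last with 1 prior variance for all genes. For the other 4 subunits with 2 probe sets the difference did not pass, with intervals from -0.14 to 0.14 for CCT2, -0.75 to 0.16 for CCT4, -0.23 to 0.58 for CCT5 and -0.62 to 0.79 for CCT8.

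The 3 probe sets paired with both TCP1, the alpha subunit gene, and SNORA29 are counted for neither gene. Probe set 208778_s_at gave 2395 and 2445 in controls and 2011 and 1958 after COUP-TFII siRNA, a log2 change of -0.28 ± 0.05 (SE; limma adjusted p = 0.00991 over all probe sets). Probe set 222011_s_at went from 583.7 and 555.9 to 322.6 and 299.8, or -0.84 ± 0.08. Probe set 222010_at went from 418.4 and 402.3 to 123.8 and 134.3, or -1.56 ± 0.09. The groups were apart and lower in all 3, against 24.1% of all probe sets, and the brightest changed least. The table does not say which of the paired transcripts each detects.

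Genes that start close to a subunit gene and are transcribed away from it were not called on the deposited scale. COMMD1, with a start 54 bases from one of CCT4, gave 1088 and 1094 in controls and 1194 and 1129 after COUP-TFII siRNA, a log2 fold change of 0.09 with an interval from -0.05 to 0.23. MRPL18, a mitochondrial ribosomal protein gene 210 bases from TCP1, had a log2 fold change of 0.05 (interval -0.10 to 0.20), and TSACC, 234 bases from CCT3, one of -0.14 (interval -0.86 to 0.58) at a dim 25.4 to 71.4. The limma adjusted p-values were 0.369, 0.669 and 0.822. Neighbours were read from the same RefSeq windows, so a gene missing from that table was not considered.

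The 5 genes nearest to the mean profile of the subunits over the 4 arrays were POLR1H, IWS1, POLR2G, TXN and NSDHL. Likeness was the root mean square distance of the log2 deviations from each gene's own mean, over 9880 genes brighter than the median, and was 0.0067 to 0.010 for these 5. All but POLR1H were called lower, but they were picked for their likeness to a lower profile, so these calls add nothing. IWS1 and NSDHL were called in 6 of 17 alternatives each. With 4 arrays the ranking is a description. POLR1H and POLR2G encode subunits of RNA polymerases I and II, IWS1 a transcription elongation factor, TXN thioredoxin and NSDHL a sterol-synthesis enzyme. Among the subunits themselves the distance to their mean profile ran from 0.02 (CCT4) to 0.09 (CCT5).

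Among cofactors of the chaperonin, the called prefoldin genes were lower on the deposited scale and the called phosducin-like gene was higher. Of 8 measured prefoldin and phosducin-like genes, 2 were called lower, 1 higher and 5 were not called, with a median of -0.12. Over all genes 10.3% were called lower and 12.8% higher, and of the 858 bright genes 29.7% lower. The prefoldin gene PFDN2 gave 3905 and 4074 in controls and 3417 and 3432 after COUP-TFII siRNA, and VBP1, which encodes prefoldin 3, gave 3458 and 3260 against 3021 and 2709. They fell by 0.22 and by 0.23 on the log2 scale (limma adjusted p = 0.00916 and 0.0275). PDCL, a phosducin-like protein needed for assembly of G protein beta-gamma dimers, rose from 289.2 and 286.4 to 442.6 and 434.0, a log2 change of 0.58 ± 0.08 (SE; limma adjusted p = 0.00107), called in all 17 alternatives. In the related prefoldin-like and R2TP complex, 3 of 8 were called lower and 1 higher. PDRG1, a prefoldin-like subunit, rose from 564.6 and 600.7 to 947.4 and 970.1, or 0.70 on the log2 scale, also called in all 17. RUVBL1, an AAA ATPase of that complex, was lower at 281.8 and 312.7 against 211.4 and 202.2.

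Other chaperonins were lower in 4 of 7 measured genes and higher in 1 on the deposited scale, with a median of -0.23. Shares called lower were 10.3% over all genes and 29.7% over the 858 bright genes. HSPD1, the mitochondrial HSP60, gave 7321 and 7312 in controls and 6184 and 6028 after COUP-TFII siRNA, a log2 fold change of -0.26 (limma adjusted p = 0.00201), and its partner HSPE1 3812 and 3851 against 3400 and 3141, or -0.23 (limma adjusted p = 0.013). In both genes the groups were apart and lower, which held for 26.7% of all genes and 48.1% of the 858 bright genes. Averaging the probe sets of HSPD1 gave -0.14 and no call (limma adjusted p = 0.327). CCT6B, a paralogue of CCT6A known from testis, went from 455.9 and 492.6 to 295.3 and 369.1, or -0.50 ± 0.11 (SE; limma adjusted p = 0.0108). Transcripts of close paralogues can bind each other's probes, and the part of CCT6A in this value was not tested. Of the chaperonin-like genes of Bardet-Biedl syndrome, MKKS was called lower, at 2079 and 2162 against 1723 and 1642, and BBS10 higher, at 466.7 and 442.5 against 617.8 and 546.4.

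The cytosolic HSP70 and HSP90 machinery works upstream of and beside CCT. On the deposited scale 9 of its 24 measured genes were called lower, 4 higher and 11 not called, with a median of -0.14. The share lower was 37.5%, against 29.7% of the 858 bright genes and 10.3% of all genes. The largest changes were falls. The HSP90 cochaperone FKBP4 went from 662.2 and 677.8 to 326.3 and 367.0, a log2 change of -0.92 ± 0.08 (SE; limma adjusted p = 7.87e-05). FKBP5, a cochaperone of steroid receptors, went from 260.9 and 277.2 to 129.4 and 146.7, HSPA14, an HSP70 relative at the ribosome, from 547.3 and 540.3 to 305.0 and 303.9, and BAG3, an HSP70 cofactor, from 2537 and 2346 to 1527 and 1601. These 4 genes were picked as the largest called changes without overlap, so the gap between their arrays is no further result. FKBP4, HSPA14 and BAG3 were called in all 17 alternatives. Averaging the probe sets of FKBP5 gave -0.42 and no call (limma adjusted p = 0.0852). HSF1 itself was not called, at 1252 and 1193 against 1210 and 1154, with overlapping groups and a log2 fold change of -0.05. HSBP1, an inhibitor of HSF1, gave 4875 and 4784 against 4310 and 4168, a log2 fold change of -0.19 (limma adjusted p = 0.016). It was called in 9 of 17 alternatives, and averaging its probe sets gave -0.11 and no call. HSF2 had no single-gene probe set, nor did HSPA8, HSPA1A, HSPA1B and AHSA1 of the HSP70 and HSP90 list. Only transcripts were measured, and the activity of HSF1 was not tested.

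**Figure D3:**
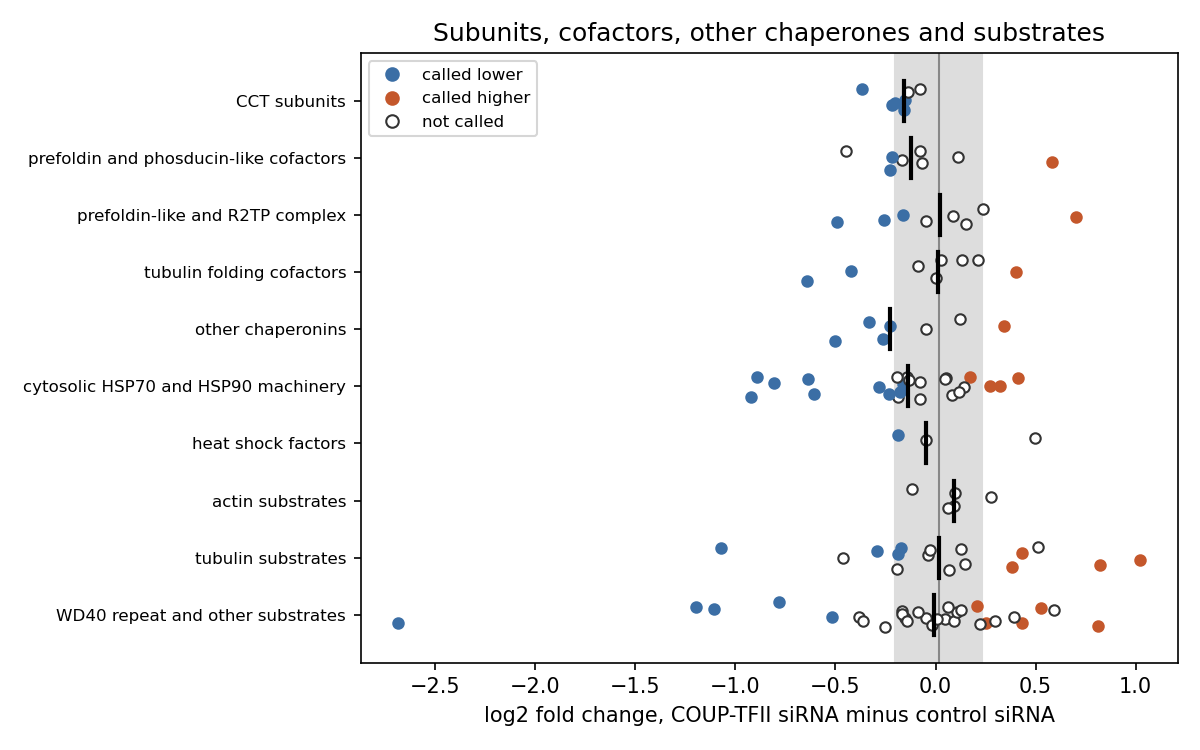
Log2 fold change of each measured gene, COUP-TFII siRNA minus control siRNA, for the CCT subunits and 9 lists of related genes on the deposited scale (points: genes, filled where called; black bars: list medians; grey line and band: median and interquartile range of all 19775 genes). The subunits lie between -0.37 and -0.08, with CCT2, CCT3, CCT4 and CCT8 inside the band of -0.20 to 0.23. The larger tubulin and WD40 lists spread to both sides, and they include dim genes, with control means down to 8.8 and 11.4.

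Among substrates of the chaperonin, none of the 5 measured actin and actin-related genes was called (limma; 0 of 5 also at an unadjusted p under 0.05, and 2 higher after centring on the median change of the housekeeping genes). ACTB, beta-actin, gave 12576 and 12972 in controls and 13807 and 13387 after COUP-TFII siRNA, a log2 fold change of 0.09 (limma adjusted p = 0.161), called higher in 5 of 17 alternatives. ACTG1 had no single-gene probe set. Of 16 tubulin genes 4 were called lower, 4 higher and 8 were not called. The share lower was 25%, against 10.3% of all genes and 29.7% of the 858 bright genes. TUBA1B is among those not called, through a dim probe set at 6.41 to 29.5, although 5 of its 6 probe sets were called lower, and with _x_at probe sets allowed 5 tubulin genes were lower. TUBA4A, an alpha-tubulin, rose from 755.3 and 779.9 to 1525 and 1631, a log2 change of 1.02 ± 0.06 (SE; limma adjusted p = 9.06e-06), called in all 17 alternatives, and TUBB2A, a beta-tubulin, from 1154 and 1211 to 1552 and 1652. TUBG2, a gamma-tubulin, rose from 56.6 and 75.6 to 117.4 and 140.2, and TUBB4A fell near the floor, from 34.2 and 28.1 to 3.26 and 9.95.

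Of 8 tubulin folding cofactors, which take over tubulin after CCT, 2 were called lower, 1 higher and 5 were not called. Here too 25% were lower, against 10.3% of all genes and 29.7% of the 858 bright genes. TBCEL, a tubulin-destabilising relative of cofactor E, went from 481.2 and 485.5 to 310.1 and 297.8, and TBCD, cofactor D, from 215.7 and 227.6 to 149.8 and 173.2, the latter called in 9 of 17 alternatives. Averaging probe sets gave -0.21 for TBCEL and -0.21 for TBCD, with neither called. ARL2, a small GTPase that works with the cofactors, rose from 577.5 and 669.5 to 827.9 and 826.3, measured by a probe set open to cross-hybridisation. Among 30 WD40 repeat and other substrates, 5 were called lower, 5 higher and 20 were not called, with a median of -0.01. Their share lower was 16.7%, between the 10.3% of all genes and the 29.7% of the bright ones. CDC20, the mitotic activator that CCT folds, fell from 978.7 and 942.1 to 401.0 and 419.4, a log2 change of -1.20 ± 0.07 (SE; limma adjusted p = 7.8e-06). The scaffold gene STRN fell from 192.2 and 162.6 to 69.9 and 77.4, with 1 of its 10 probe sets called, and averaging them gave -0.18 and no call. GNB4, with 1 of its 3 probe sets called, fell by 2.69 on the log2 scale, or by 1.26 with its probe sets averaged. CCNE1, the cyclin E1 gene, rose by 0.81, and averaging its probe sets gave 0.39 and no call (limma adjusted p = 0.0966).

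The size of the change differed between settings more for some subunits than for others. The log2 fold change of CCT5 was -0.0060 with the planned centring on the median housekeeping level and ran from -0.38 to -0.28 in the other settings. It was called lower in 15 of 17 alternatives. CCT6A and CCT7 were called lower in 10 each, CCT4 in 8 and CCT2 in 6. CCT8 passed as lower in 4, with the replicate block, with 64 added before the logarithm, with dim probe sets left out and with robust moderation. Quantile normalization gave -0.02 for CCT3 and -0.07 for CCT8. Averaging the probe sets of a gene gave -0.40 for CCT6A, -0.30 for CCT4 and -0.28 for CCT5.

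**Figure D4:**
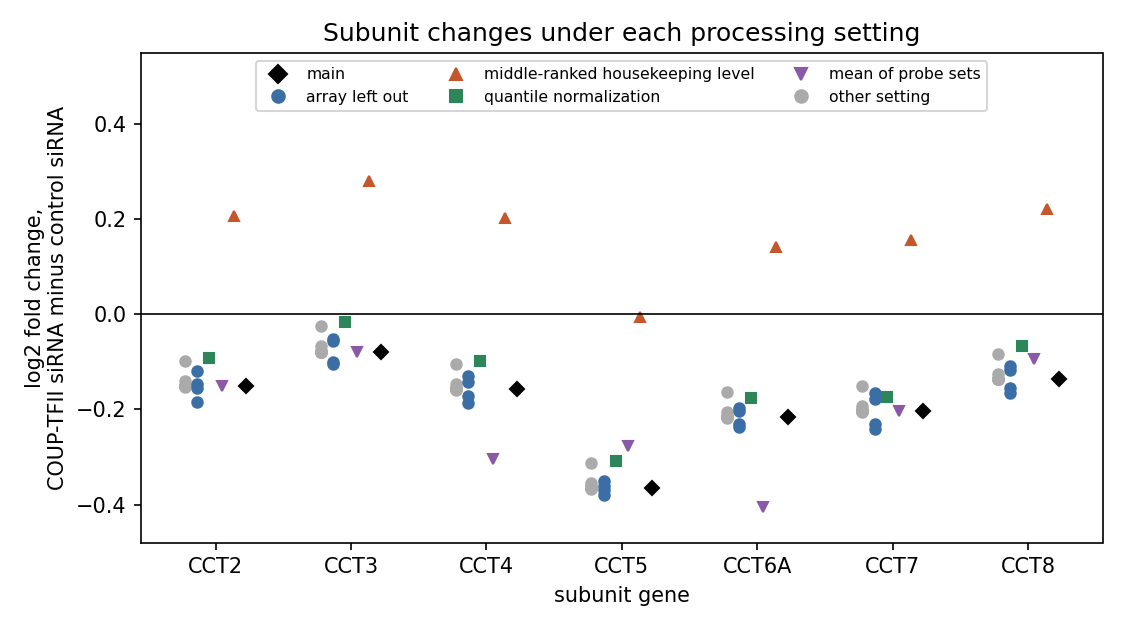
Log2 fold change of each subunit gene, COUP-TFII siRNA minus control siRNA, under the 16 other fits and as reported (black diamonds). Averaging probe sets (purple) moves CCT6A to -0.40 and CCT4 to -0.30; the orange triangles, for centring on the median housekeeping level, lie 0.36 higher, above 0 for 6 of the 7 genes, because that level is taken from HPRT1 in controls and SDHA in treated arrays.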

How the data were processed

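Per the labels' protocols, biotin-labelled cRNA was measured on Affymetrix arrays of 1 colour. The authors deposited 1 linear intensity per probe set and array, between 0.61 and 15890. How probes were summarised, background-corrected and normalized is not stated in the labels or headers. The values come without detection calls, and 4 arrays limit the precision. No further scaling was applied. The platform table named 1 gene for 41091 probe sets, several for 1801 and none for 11721, and symbols were updated through Entrez identifiers in RefSeq (41037 matched). The 62 control probe sets were left out. Each gene was its brightest single-gene probe set over all 4 arrays, with _x_at probe sets only where there was no other.

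The fits used R 4.3.3 with limma 3.58.1 (lmFit, eBayes with an intensity trend) on log2(intensity + 16), with 2 residual degrees of freedom and 8.85 after moderation. Fold changes on this scale understate those of dim genes. An exact permutation test of 2 against 2 arrays cannot go below p = 0.333. The members and lists were chosen with earlier results of these data known. Named genes were all members, up to 4 called genes per list with the largest change and no overlap, HSF1, HSF2, ACTB, ACTG1, CCT6B, HSPD1 and HSPE1, divergent neighbours within 1000 bases, and the 5 genes most alike. Replicate numbers are shared between groups, and the labels do not say whether they mark shared transfections. Deviations of same-numbered arrays correlated at 0.018 over all genes. With 2 arrays per group this is the same value for both pairs, and it cannot exclude pairing. The reported fit used no block, and a fit with the replicate block is given below. Figures were drawn with matplotlib 3.10.9.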

Additional observations from a re-analysis of the deposited data

How the results depend on the processing

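With 2 arrays per group the changes of the subunits, of 5.30% to 22.4%, rest on the shared estimate of the spread and on the scale. Centring on the median level of 15 housekeeping genes was the planned housekeeping centring. It compares HPRT1, itself at a log2 fold change of -0.77, in controls with SDHA in treated arrays, and adds 0.36 to every gene whatever the gene does. It moved the housekeeping genes' own median log2 fold change from -0.04 to 0.32 and turned the subunit median to 0.20. With it 9535 genes were called (91.8% of them higher, against 55.3%). So were 6 subunit genes, all higher, and 8 subunit probe sets, 7 higher and 1 lower. It turned CCT2 to 0.21, CCT3 to 0.28, CCT4 to 0.20, CCT6A to 0.14, CCT7 to 0.16 and CCT8 to 0.22, VBP1 to 0.13, PFDN2 to 0.14, PIH1D1 to 0.10, POLR2E to 0.20, MKKS to 0.028, HSPD1 to 0.10, HSPE1 to 0.13, HSBP1 to 0.17, HSF1 to 0.31, TSACC to 0.22, POLR1H to 0.17, IWS1 to 0.18, POLR2G to 0.18, TXN to 0.17 and NSDHL to 0.18. Other centrings on these genes were added after seeing the data. Centring on the mean level left 5 subunit genes lower with a median of -0.15, and centring on the median change left 3 with a median of -0.10 and put HSF1 at 0.0050. With 1 prior variance for all genes 1589 genes, 0 subunit genes (limma; 1 at an unadjusted p under 0.05) and 0 subunit probe sets (3 unadjusted) were called. Quantile normalization gave 3 subunit genes and a median of -0.10, and averaging probe sets a median of -0.20 and POLR1H at 0.026. Leaving out dim probe sets or robust moderation each gave 7 subunit probe sets. An adjusted p under 0.01 left 2781 genes, 1 subunit gene and 2 subunit probe sets. With 1 array left out, 1792 to 2362 genes, 1 subunit gene and 0 to 2 subunit probe sets were called, and the subunit median ran from -0.18 to -0.13. Without COUP-TFII siRNA replicate 1, TSACC was at 0.40 and MRPL18 at -0.015; without COUP-TFII siRNA replicate 2 they were at -0.68 and 0.12. The fit with the replicate block called 5132 genes, 6 subunit genes (CCT8 added) and 5 subunit probe sets. In each of the 10 alternatives that can change it, the 7 subunits lay below the median of all genes, with a difference in medians of -0.21 to -0.11. For the related lists 95 of 153 counts of calls in either direction stayed within 1.5 times the reported count, 47 were lower and 11 higher. These counts ignore direction. With centring on the median housekeeping level, tubulins went from 4 lower and 4 higher to 1 lower and 11 higher, within that limit. Causes were not tested.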
